A study of Homo sapiens with 30 samples.

Results

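RNR1, RNR2 and MIR6087 are 3 of the 27630 gene rows counted in RNA from HEK293FT, a line of human embryonic kidney cells. They were selected by name, because earlier results of the same data showed that they hold a large part of the counts. RNR1 and RNR2 are the 12S and 16S ribosomal RNA (rRNA) genes of the mitochondrial genome. MIR6087 is annotated as a microRNA on chromosome X, and its place beside the rRNA rows came with the selection. The levels given here therefore describe these rows and carry no test.

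The study mapped RNA close to the nuclear lamina, the protein meshwork under the inner nuclear membrane, with the peroxidase APEX2, which tags molecules near the protein it is fused to. There were 4 groups of 2 libraries: a nuclear fraction, a cytosolic fraction, RNA from APEX2 labelling in a native preparation, and RNA from APEX2 labelling in a preparation fixed with paraformaldehyde (PFA). By the labels, all 8 libraries came from asynchronous cells that carried a transfected construct of APEX2 and lamin B1, delivered with Lipofectamine 2000, so the fractions share the construct and no untransfected group was used here. RNA was isolated with Trizol and passed through rRNA depletion before TruSeq v2 library preparation. The promoter of the construct and the share of cells that took it up are not given in the sources used here. Nothing in the labels says whether replicates came from separate cultures, so every p-value measures only the spread between these libraries, which may be technical.

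Ribosomes hold RNA from separate genomes. The small and large subunits of the mitochondrial ribosome contain the 12S and 16S rRNA, which are cut from a transcript of the mitochondrial heavy strand inside the organelle. The 18S, 5.8S and 28S rRNA of cytosolic ribosomes are cut in the nucleolus from a 45S precursor made by RNA polymerase I, whose external transcribed spacer also holds the sequences annotated as MIR3648 and MIR3687. Depletion kits remove rRNA with probes before sequencing, so what remains in a library depends on both the sample and the depletion.

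On hg19, RNR1 spans chrM:650-1603 and RNR2 chrM:1673-3230, both on the plus strand, with 954 and 1558 exonic bases and 70 bases between them. They were the only 2 rows of the mitochondrial chromosome and together held 7969547 counts over all libraries. No mitochondrial messenger RNA had a row, so the mitochondrial signal in these tables is rRNA alone. MIR6087 spans chrX:108297772-108297820 on the plus strand, 49 bases. No other row overlapped it, and the nearest, LOC101928358, lay 315639 bases away. The nuclear rRNA genes on the unplaced hg19 contig Un_gl000220, which holds 31 rows including those of 18S, 5.8S, 28S and 45S RNA, had 0 counts in all 8 libraries. The counting left out reads that map to several places, and these genes have many copies, but the cause of the 0 counts was not tested. With that cause unknown, the rows of these genes give no measure of 18S or 28S rRNA left after depletion. Their count of 0 sets no limit on it. Whether MIR6087 holds reads of 28S rRNA was not tested, because its sequence was not compared with that RNA, so its counts are given as those of the row and not as those of a known RNA.

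RefSeq (GRCh38.p14) mature sequences were used for the microRNA rows that are set beside MIR6087 below, because they show how rich in G and C such rows are. Of the 3 selected rows none had an entry. Capitals mark the seed, bases 2 to 8 from the 5′ end. The sequences lie at chr21:8987026-8987046 on the plus strand, and at chr20:26208243-26208264 and chr2:132256970-132256991 on the minus strand, in the order shown.
hsa-miR-3648: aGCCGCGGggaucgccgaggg
hsa-miR-663a: aGGCGGGGcgccgcgggaccgc
hsa-miR-663b: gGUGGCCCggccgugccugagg
Their GC content was 81.0%, 90.9% and 81.8%, against a median of 52.2% over 2370 human mature microRNAs, of which 97.2%, 99.5% and 97.6% had a lower value. The seeds differ between all 3. MIR3687 and MIR6087 are named without a sequence.

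Total counts ran from 2321291 in PFA replicate 2 to 8557777 in native replicate 1, and 3981 rows had no count in any library. Marker sums followed the labels of the fractions: a fixed list of nuclear RNAs led by MALAT1 came to 13567 and 19785 CPM, the usual scaling of counts to library size, in the nuclear replicates and to 996 and 1057 in the cytosolic ones, while a list of cytosolic messages with GAPDH and ACTB came to 722 and 1070 CPM against 4556 and 6154. PFA replicates stood apart in the nuclear list, at 658 and 4809 CPM, with 7131 and 15367 CPM at the native lamina. LMNB1, the gene of the construct, took 3042 to 5202 CPM in the fractions and 29635 to 94861 CPM at the lamina. Vimentin (VIM) was present in all 8 libraries, whereas the blood genes PTPRC and HBB had 0 counts in all of them. The labels give no date or batch, so no value within batches can be given.

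The 3 rows together took 34.9% and 36.6% of all counts in the nuclear replicates and 21.4% and 31.2% in the cytosolic ones. The native replicates gave them 8.48% and 9.80%, and the PFA replicates 27.2% and 13.4%. The group means were 35.7% ± 1.21 (SD, n = 2), 26.3% ± 6.94, 9.14% ± 0.934 and 20.3% ± 9.73 in that order. In this share both native libraries lay below all others, and both nuclear libraries lay above all others. After the scaling between libraries used below, the nuclear and cytosolic libraries overlapped (log2 ratio of means 0.39, -0.11 to 1.02 over the 4 pairings of libraries). The native libraries stayed below the nuclear ones, where 35.1% of the genes tested were lower without overlap. How many genes do so in unscaled shares was not computed. The 95% Wilson intervals of the share per library reached at most 0.0439 percentage points to either side. That covers counting error only, since no molecular identifiers separate molecules from their copies. A share in bulk RNA cannot tell fewer molecules of a row from more molecules of everything else.

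**Figure D1:**
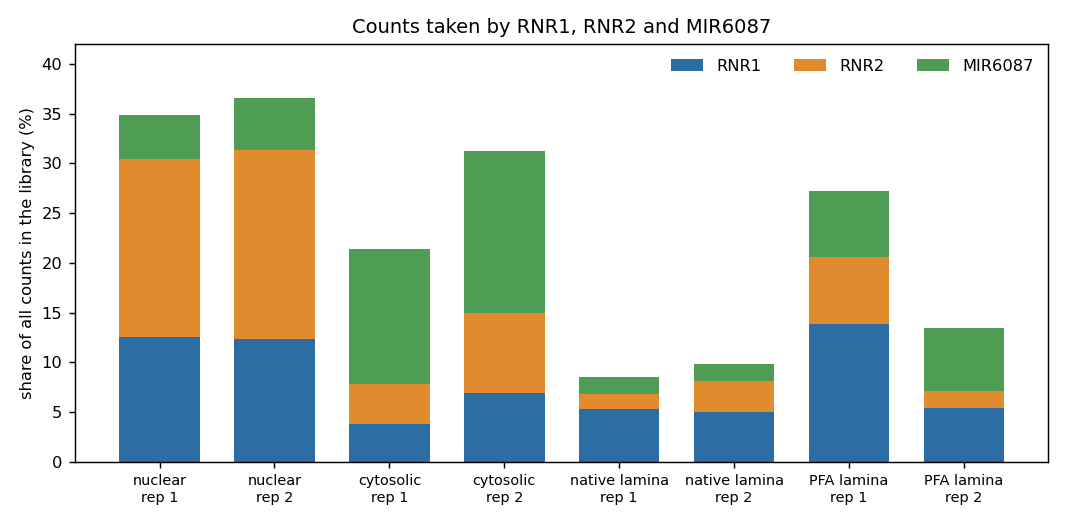
Stacked bars give the share of all counts (percent, y axis) taken by RNR1, RNR2 and MIR6087 in each of the 8 libraries (x axis); each bar is 1 library, without error bars. The native lamina bars end at 8.48% and 9.80%, the nuclear bars at 34.9% and 36.6%, and MIR6087 is the largest segment in both cytosolic bars.

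RNR1, the 12S rRNA of the small mitochondrial subunit, had 817028 and 825987 counts in the nuclear replicates and 275061 and 399688 in the cytosolic ones. Its counts were 455601 and 297638 in the native replicates and 812305 and 124678 in the PFA replicates. As shares of all counts these were 12.5% and 12.3% nuclear, 3.78% and 6.89% cytosolic, 5.32% and 4.97% native, and 13.9% and 5.37% PFA. The nuclear and native replicates lay close together, while the cytosolic and the PFA replicates did not. PFA replicate 1 was the highest of all 8 libraries and PFA replicate 2 lay among the native and cytosolic ones. The group means were 12.4% ± 0.161 (SD, n = 2) nuclear, 5.33% ± 2.20 cytosolic, 5.15% ± 0.253 native and 9.62% ± 6.01 PFA. RNR1 was the row with the most counts in native replicate 2 and PFA replicate 1, and ranked at place 2 or 3 in the other 6 libraries.

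RNR2, the 16S rRNA of the large mitochondrial subunit, had 1167202 and 1276388 counts in the nuclear replicates, more than any other row there. The cytosolic replicates had 293280 and 468826 of its counts, the native replicates 127785 and 191578, and the PFA replicates 395664 and 40838. The shares were 17.9% and 19.0% nuclear, 4.03% and 8.08% cytosolic, 1.49% and 3.20% native, and 6.75% and 1.76% PFA. The nuclear libraries lay above the other 6, and the native libraries lay below both cytosolic ones. PFA replicate 2 fell within the native range, while PFA replicate 1 fell within the cytosolic range. The group means were 18.5% ± 0.786 (SD, n = 2), 6.05% ± 2.86, 2.35% ± 1.20 and 4.26% ± 3.53, in the same order.

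MIR6087 had 287958 and 352227 counts in the nuclear replicates and 988213 and 941479 in the cytosolic ones. The native replicates had 142509 and 98281 of its counts, and the PFA replicates 386226 and 146657. The shares were 4.42% and 5.25% nuclear, 13.6% and 16.2% cytosolic, 1.67% and 1.64% native, and 6.59% and 6.32% PFA. No 2 groups overlapped in this share: the cytosolic libraries were highest, then the PFA, the nuclear and the native libraries. After the scaling between libraries used below, the PFA and nuclear libraries overlapped. On that scale 42.5% of the genes tested were higher and 35.4% lower without overlap between nuclear and cytosolic libraries. Between PFA and native libraries it was 19.9% and 18.7%. How many genes do so in unscaled shares was not computed. The group means were 4.83% ± 0.587 (SD, n = 2) nuclear, 14.9% ± 1.88 cytosolic, 1.65% ± 0.0178 native and 6.45% ± 0.194 PFA. In both cytosolic libraries it was the row with the most counts. The PFA replicates lay close together in this share and far apart in those of RNR1 and RNR2, although all 3 rows come from the same pair of libraries.

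The rows thus differed in how well replicates matched. After scaling with TMM, a factor per library that makes most genes comparable, RNR1 differed 2.30-fold between the cytosolic replicates and 3.27-fold between the PFA replicates. Among 7737 genes with at least 50 counts in every library, 1.2% and 0.724% differed by as much. RNR2 differed 2.53-fold between the cytosolic, 2.13-fold between the native and 4.87-fold between the PFA replicates, and 0.685%, 2.21% and 0.194% of genes did so. MIR6087 differed by between 1.02-fold and 1.51-fold, where 93.9% and 15.2% of genes differed by as much at the native lamina and in the cytosolic fraction. Values of RNR1 and RNR2 that involve the cytosolic or the PFA group therefore rest on libraries that stand apart from each other. The same holds for values of RNR2 that involve the native group.

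In the nuclear against the cytosolic fraction the mitochondrial rows and MIR6087 lay on opposite sides. On the scale of TMM-scaled CPM, the log2 ratio of the group means was 1.15 for RNR1, with 0.59 to 1.95 over the 4 pairings of a nuclear with a cytosolic library, and the groups did not overlap. For RNR2 it was 1.54 (0.87 to 2.48 over the pairings), also without overlap. MIR6087 had -1.65 (-2.15 to -1.13), so its cytosolic level was 3.14-fold its nuclear level, without overlap. Of the 16504 genes tested between groups, 42.5% were higher in the nuclear fraction without overlap and 35.4% lower, so non-overlap of 2 against 2 libraries is common in this comparison. Without cytosolic replicate 2 the ratios of RNR1 and RNR2 became 1.87 and 2.35, and without cytosolic replicate 1 they became 0.67 and 1.02.

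All 3 rows were lower at the native lamina than in nuclear RNA. The log2 ratio was -1.56 for RNR1 (-1.69 to -1.42 over the pairings), -3.27 for RNR2 (-4.05 to -2.69) and -1.85 for MIR6087 (-2.06 to -1.60), each without overlap, where 35.1% of the genes tested were lower without overlap. The nuclear level was 9.66-fold the native level for RNR2, 3.60-fold for MIR6087 and 2.95-fold for RNR1. Against the cytosolic fraction, RNR2 had -1.74 (-2.90 to -0.47) and MIR6087 -3.50 (-3.78 to -3.16) without overlap, where 28.4% of genes were lower and 35.8% higher without overlap. The cytosolic level of MIR6087 was 11.3-fold its native level. RNR1 had -0.41 (-0.95 to 0.36) against the cytosolic fraction and the groups overlapped, so no difference larger than the replicate spread was seen. Without cytosolic replicate 2 that ratio changed sign, to 0.31.

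At the PFA lamina RNR2 was lower than in the nuclear fraction, with a log2 ratio of -2.19 (-3.87 to -1.31 over the pairings) and no overlap, where 32.2% of the genes tested were lower without overlap. That value was -3.74 without PFA replicate 1. RNR1 had -0.46 (-1.63 to 0.24) with overlap, which became -1.55 without PFA replicate 1 and 0.16 without PFA replicate 2. MIR6087 had 0.25 (-0.17 to 0.67), with overlapping TMM-scaled levels, where 30.0% of genes were higher without overlap on that scale. Its unscaled shares did not overlap, the PFA ones being higher. How many genes do so in unscaled shares was not computed. The comparisons of both preparations with a fraction share the libraries of that fraction.

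Against the cytosolic fraction the PFA lamina had overlapping levels of RNR1 (0.69, -0.88 to 2.03 over the pairings) and RNR2 (-0.65, -2.72 to 0.90). MIR6087 was lower there, at -1.40 (-1.88 to -0.89) without overlap, with 23.0% of genes lower without overlap. The ratios of RNR1 and RNR2 changed sign when 1 library was left out: RNR1 became -0.40 without PFA replicate 1, and RNR2 became 0.08 without PFA replicate 2 and 0.17 without cytosolic replicate 2. Between the preparations, MIR6087 was 4.28-fold higher at the PFA than at the native lamina, a log2 ratio of 2.10 (1.86 to 2.30) without overlap, where 19.9% of genes were higher without overlap. RNR1 had 1.10 (-0.05 to 1.78) and RNR2 1.09 (-0.91 to 2.46), both with overlap, although the shares of RNR1 did not overlap. Without PFA replicate 1 these became 0.0081 and -0.47. The levels of RNR1 and RNR2 at the PFA lamina thus rest on which PFA library is taken, and the nuclear marker list differed between the same libraries, at 658 and 4809 CPM. Whether the rRNA rows and those markers moved together for a shared reason was not tested.

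The ratio of the 2 mitochondrial rRNA rows within a library does not depend on any scaling between libraries. Per base of exonic length, RNR2 had 0.875 and 0.946 times the counts of RNR1 in the nuclear replicates and 0.653 and 0.718 times in the cytosolic ones. Among lamina libraries it had 0.172 and 0.394 times in the native and 0.298 and 0.201 times in the PFA replicates. The nuclear libraries lay above the cytosolic ones and those above all 4 lamina libraries, while the native and PFA libraries overlapped. The group means were 0.910 ± 0.0505 (SD, n = 2), 0.686 ± 0.0462, 0.283 ± 0.157 and 0.249 ± 0.0691. Both PFA libraries lay low, although their RNR1 shares were 13.9% and 5.37%. The genes of both rows belong to the same transcript unit of the same organelle, and efficiency of depletion per probe was not measured. The cause of the difference in this ratio between groups was not tested.

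MIR6087 over the sum of RNR1 and RNR2, in counts, was 0.145 and 0.168 in the nuclear replicates and 0.244 and 0.201 in the native ones. It was 1.74 and 1.08 in the cytosolic replicates, and 0.320 and 0.886 in the PFA replicates. The cytosolic libraries were the only ones with more counts in MIR6087 than in both mitochondrial rRNA rows together. The native libraries lay just above the nuclear ones, without overlap, although all 3 rows were lower there in share.

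**Figure D2:**
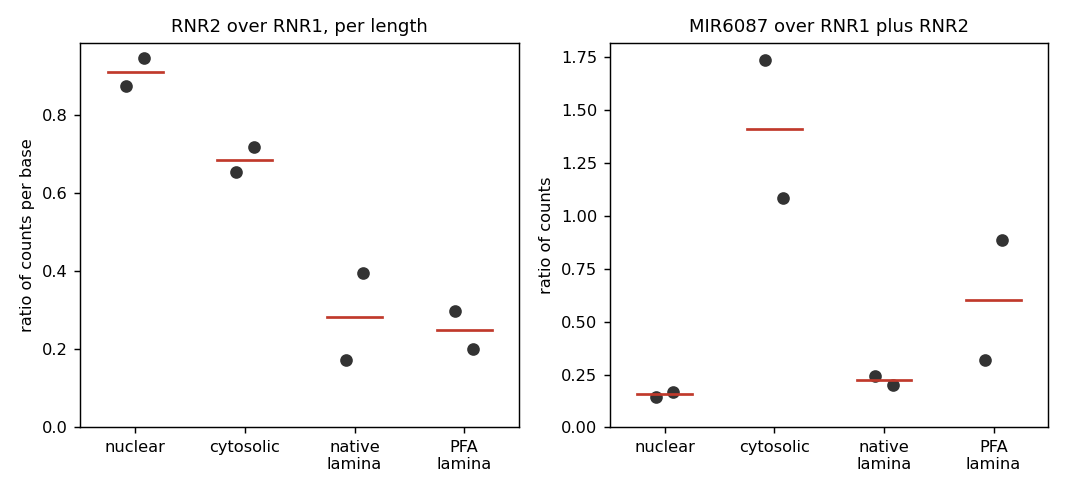
Points are the 8 libraries by group (x axis) and red lines the mean of 2 libraries; the left panel gives RNR2 over RNR1 in counts per base (y axis) and the right panel MIR6087 over RNR1 plus RNR2 in counts (y axis). In the left panel the 4 lamina libraries lie between 0.172 and 0.394, below the 0.653 of the lowest cytosolic library; in the right panel the cytosolic points, 1.74 and 1.08, are the highest.

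Nuclear DNA holds copies of mitochondrial sequence, and the rows of the MTRNR2L family resemble RNR2 in sequence. The 10 rows of that family had 219 and 249 counts in the nuclear replicates, 39 and 45 in the cytosolic, 32 and 38 in the native and 45 and 12 in the PFA ones. As a share of the RNR2 counts of the same library this was between 0.0096% and 0.0294%. MTRNR2L2 (chr5:79945819-79946854) had 103 and 138 counts nuclear, 22 and 23 cytosolic, 14 and 18 native and 34 and 5 PFA. Its nuclear level was above its cytosolic level by 2.36 on the log2 scale (quasi-likelihood test of edgeR, adjusted p 0.00474). Relative to the nuclear fraction it was lower at the native lamina (-3.29, edgeR adjusted p 0.0122) and at the PFA lamina (-2.19, edgeR adjusted p 0.0228). Of the rows of mitochondrial copies, 3 passed the low-count filter and were tested, and all 3 were called lower in both lamina comparisons with the nuclear fraction. With a filter of at least 10 counts in every library, 0 of them were tested. The calls also changed when 1 library was left out. Across all genes, 47.3%, 7.31% and 17.4% were called in these comparisons in either direction. MTRNR2L3 (chr20:55933496-55934878) had 55 and 57 counts nuclear, 0 and 0 cytosolic, 6 and 10 native and 0 and 3 PFA. It was 1 of the 3 tested rows and had over 10 counts only in the nuclear libraries, the group where it was highest. Reads that fit both RNR2 and a copy could have been counted in either or left out, so these values are uncertain.

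MIR6087 was compared with other short rows because a row of 49 bases is shorter than most fragments of an RNA library. Of 1803 rows under 100 bases, MIR6087 alone held 87.1% to 99.6% of the counts in each library. The rest of them took 0.0625% to 0.778% of all counts. No level per length is given for MIR6087, because reads that reach past a row this short are counted in full. The read length is not given in the sources used here.

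The other microRNA rows with at least 50 counts in any library from a list drawn up for likeness to nuclear rRNA gene sequence, which was not checked here, were MIR3648, MIR3687, MIR663A and MIR663B. MIR3648 (chr21:9825832-9826011) and MIR3687 (chr21:9826203-9826263) lie 192 bases apart, and each is listed as a pair of rows (MIR3648-1 and MIR3648-2, MIR3687-1 and MIR3687-2) with the same position and counts. In the RefSeq annotation of GRCh38.p14, MIR3648-1 lies inside the 45S precursor gene RNA45SN2, while MIR3648-2, the source of the sequence printed for hsa-miR-3648, does not lie in a 45S gene of that annotation. MIR3687-1 and MIR3687-2 had no entry there. MIR663A (chr20:26188822-26188914) and MIR663B (chr2:133014539-133014653) do not lie in such a gene.

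These rows had their highest counts in the nuclear libraries, where MIR6087 did not. MIR3687 had 12796 and 17099 counts nuclear, 274 and 268 cytosolic, 1519 and 680 native, and 289 and 240 PFA. MIR3648 had 8653 and 15862, 182 and 157, 1281 and 452, and 202 and 242 counts in the same order. MIR663A had 6752 and 8789, 62 and 40, 641 and 664, and 158 and 327, and MIR663B had 1799 and 2070, 16 and 15, 184 and 122, and 33 and 53. For all 4 the nuclear libraries lay above every other library in counts and in CPM, and the cytosolic libraries had the lowest CPM. MIR6087 counts were 22.5 and 20.6 times those of MIR3687 in the nuclear replicates and 3607 and 3513 times in the cytosolic ones. They were 93.8 and 144.5 times in the native and 1336 and 611 times in the PFA replicates.

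By edgeR, all 6 rows of these 4 loci were called higher in nuclear than in cytosolic RNA, against 26.1% of all genes. The rows of a pair hold the same counts, so tallies of 6 rows here stand for 4 separate results. The log2 fold change was 5.73 (SE 0.47, edgeR adjusted p 5.65e-05) for MIR3687-1, 6.15 (SE 0.58, adjusted p 0.000158) for MIR3648-1, 7.25 (SE 0.64, adjusted p 0.000105) for MIR663A and 6.93 (SE 0.52, adjusted p 5.65e-05) for MIR663B. All 6 were lower than nuclear at the native lamina, against 3.44% of genes, at -3.96 to -4.35. All 6 were lower than nuclear at the PFA lamina too, against 7.81% of genes, at -4.12 to -5.13. MIR6087 had a TMM-scaled log2 ratio of 0.25 in the last comparison, with overlap. The 6 calls of the native lamina above the cytosolic fraction (6.99% of genes; 1.47 to 3.29) fell to 0 without either cytosolic library. Between the PFA lamina and the cytosolic fraction MIR663A alone was called (3.14, edgeR adjusted p 0.0405; 0.527% of genes were higher), and it was not called without PFA replicate 2, nuclear replicate 1 or either cytosolic library. Without PFA replicate 1, 4 of the 6 rows were called there.

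**Figure D3:**
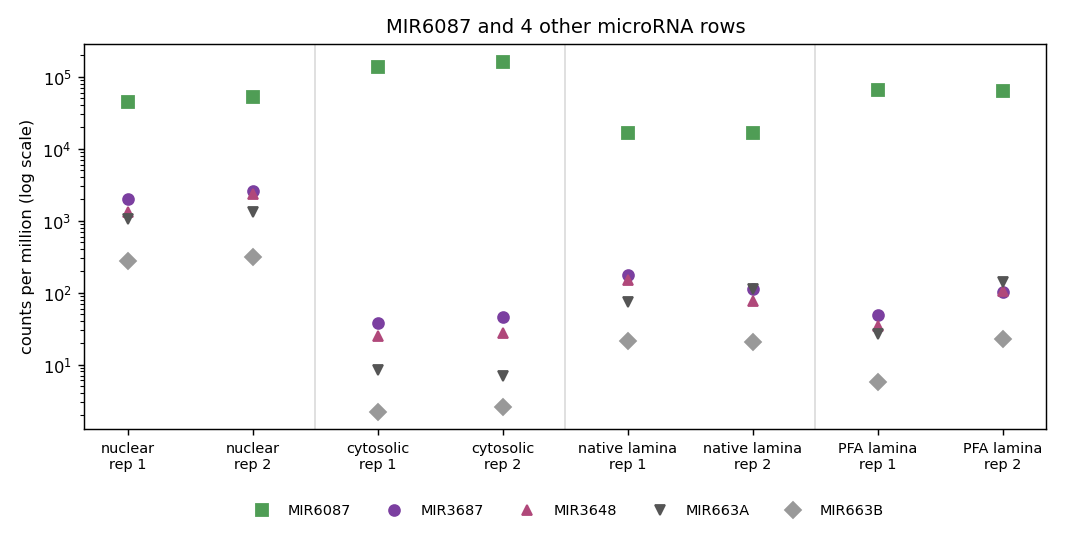
CPM on a log scale (y axis) of MIR6087 and of the MIR3687, MIR3648, MIR663A and MIR663B rows in each of the 8 libraries (x axis); each point is 1 library and row. MIR6087 is highest in the cytosolic libraries, where the other 4 rows are far below their nuclear values.

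The genes that make and process rRNA were described from lists of symbols for RNA polymerase I (15 genes tested), rRNA processing (115) and mitochondrial rRNA synthesis and ribosome assembly (33). In the nuclear against the cytosolic fraction, where edgeR called 26.1% of genes higher and 21.2% lower, the polymerase list had 2 higher and 5 lower, the processing list 4 and 41, and the mitochondrial list 5 and 9. Their median log2 fold changes were -0.33, -0.58 and -0.34, against 0.13 over all genes. FBL, the methyltransferase of box C/D snoRNA particles, had -2.35 (SE 0.37, edgeR adjusted p 0.000801), and HSD17B10, a subunit of mitochondrial RNase P, had -2.08 (SE 0.32, edgeR adjusted p 0.000801). MTERF4, a mitochondrial rRNA-binding protein of ribosome assembly, had 1.73 (edgeR adjusted p 0.00106), and TAF1C, a subunit of the RNA polymerase I selectivity factor, had 1.60 (edgeR adjusted p 0.00167). The 45 processing calls dropped to 15 without nuclear replicate 1, the 7 of the polymerase list to 4 without nuclear replicate 1, nuclear replicate 2 or cytosolic replicate 1, and the 14 of the mitochondrial list to between 5 and 7 without any 1 of the 4 fraction libraries.

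Set against the nuclear fraction, the native lamina had 2 polymerase genes and 7 processing genes higher and none lower, and 1 mitochondrial gene lower, where 3.87% of genes were higher and 3.44% lower. The medians were 0.23, 0.33 and -0.15, against -0.07 over all genes. TWISTNB, a subunit of RNA polymerase I, had 1.71 (SE 0.33, edgeR adjusted p 0.0145), RRP1B, a nucleolar protein, 1.53 (SE 0.29, edgeR adjusted p 0.0141), and TEFM, the mitochondrial transcription elongation factor, -1.15 (SE 0.32, edgeR adjusted p 0.0486). The 7 processing calls became 0 without either native or either nuclear library, and 21 and 19 without PFA replicate 1 and PFA replicate 2. The 2 polymerase calls became 0 without native replicate 1 or either nuclear library, and the mitochondrial call was lost without any 1 native, nuclear or cytosolic library.

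Against the cytosolic fraction the native lamina had 1 higher and 1 lower in the polymerase list, 2 and 7 in the processing list and 1 and 5 in the mitochondrial list, with 6.99% of genes higher and 6.77% lower. The medians were 0.00, -0.15 and -0.31, against 0.10 over all genes. HSD17B10 had -1.39 (edgeR adjusted p 0.0153) and TAF1C 1.83 (edgeR adjusted p 0.00625). Without cytosolic replicate 2 there were 0 calls in all 3 lists. The mitochondrial list also had 0 without cytosolic replicate 1 or native replicate 2, and the processing list then had 2 and 1.

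The PFA lamina against the nuclear fraction had 2 higher and 1 lower in the polymerase list, 19 and 0 in the processing list and 4 and 3 in the mitochondrial list, with 9.63% of genes higher and 7.81% lower. The medians were 0.00, 0.40 and 0.30, against -0.04 over all genes. RRS1, a ribosome assembly factor, had 1.98 (SE 0.41, edgeR adjusted p 0.0106), TWISTNB 2.19 (SE 0.33, edgeR adjusted p 0.00579) and HSD17B10 1.79 (SE 0.32, edgeR adjusted p 0.00754). Genes called lower included TAF1D of the polymerase list at -1.39 (edgeR adjusted p 0.0107). In the mitochondrial list they included MTERF2 at -1.54 (edgeR adjusted p 0.0252) and YBEY at -1.42 (edgeR adjusted p 0.026). The 19 processing calls became 0 without nuclear replicate 1, 1 without nuclear replicate 2 or PFA replicate 1, and 40 without PFA replicate 2. Without nuclear replicate 1 the polymerase and mitochondrial lists had 0 calls. The mitochondrial list also had 0 without nuclear replicate 2 and 1 without PFA replicate 1, and the polymerase list had 6 without PFA replicate 2. Against the cytosolic fraction edgeR called 0 genes in any of the lists, with 3, 19 and 4 at an unadjusted p under 0.05 and 1, 7 and 2 called by DESeq2. Between the preparations it called 0 of all genes, with 1, 13 and 9 in the lists at an unadjusted p under 0.05 and 0 in each by DESeq2.

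The genes whose levels ran most like each row over the 8 libraries were found among 11314 genes with a mean of at least 50 counts, by Pearson's r of log2(CPM + 1). These values describe the 8 libraries, which share library sizes and groups, and carry no test. For RNR1 they were ITGAE (0.874), ZNF675 (0.864) and PIGB (0.859), and RNR2 was at place 19 with 0.761. For RNR2 they were SNRPG (0.907), ZNF92 (0.881) and RAB23 (0.874), and RNR1 was at place 25. For MIR6087 they were RPS21 (0.982), FKBP1B (0.982) and TAPT1-AS1 (0.977). MIR6087 had an r of 0.039 with RNR1 and 0.334 with RNR2. RPS21, a protein of the small cytosolic subunit, had 44.3 and 73.2 CPM in the nuclear replicates, 134 and 157 in the cytosolic, 24.9 and 24.7 in the native and 90.3 and 62.9 in the PFA ones, so that its group means had the order of those of MIR6087. With Spearman's rho, 1, 1 and 0 of the 3 genes named for RNR1, RNR2 and MIR6087 were again among the closest 3.

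The share of the 3 rows also enters the total-count scaling of every other gene. It is not the only large share that differs between groups. LMNB1, at 29635 to 94861 CPM in the lamina libraries and 3042 to 5202 CPM in the fractions, was kept in all scalings below. All genes outside the 3 rows shared 65.1% and 63.4% of counts in the nuclear replicates, 78.6% and 68.8% in the cytosolic, 91.5% and 90.2% in the native and 72.8% and 86.6% in the PFA ones. On the log2 scale the ratio of the mean shares was 0.50 for native over nuclear, 0.30 for native over cytosolic and 0.31 for PFA over nuclear. In the native against the nuclear comparison edgeR called 639 genes higher and 568 lower with TMM, 52.9% of calls being higher. With total counts it called 1656 and 237 (87.5% higher), and with total counts after removal of the 3 rows 345 and 851 (28.8% higher). With TMM after removal it called 604 and 587 (50.7% higher), close to the values with the rows kept. The low-count filter was applied again after removal and left 16379 genes in place of 16504, so the tested genes differ by more than the 3 rows. The median over all genes tested was, in log2 fold change, -0.07, 0.22, -0.29 and -0.09 in that order. For the PFA lamina against the nuclear fraction, 55.2% of calls were higher with TMM, 78.7% with total counts and 44.2% with total counts after removal. The native against nuclear calls also depended on single libraries: without nuclear replicate 1 there was 1 gene higher, and without PFA replicate 1 there were 1666.

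**Figure D4:**
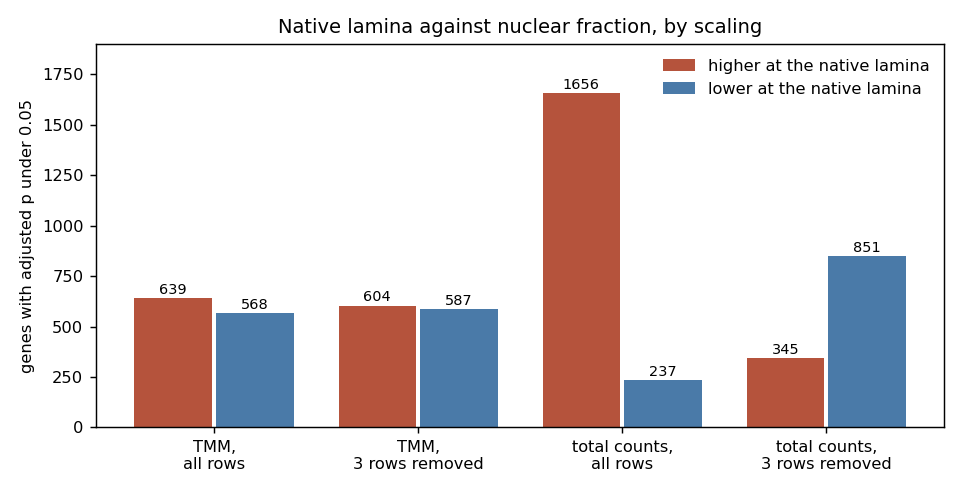
Bars count genes (y axis) with an edgeR adjusted p under 0.05 that were higher (red) or lower (blue) at the native lamina than in nuclear RNA, under 4 scalings (x axis). The counts were 1656 higher and 237 lower with all rows and 345 and 851 after removal of RNR1, RNR2 and MIR6087 with total counts, and 639 and 568 against 604 and 587 with TMM, with 16504 genes tested before and 16379 after removal and renewed filtering.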

How the data were processed

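Read counts per gene symbol were deposited for 8 HEK293FT libraries. Per the file headers, the authors made these counts with featureCounts 1.5.2 without strand, counted a read for every gene it overlapped and did not count multi-mapping reads. The submitters' processing notes name hg19, TopHat2 2.1.1 and Bowtie2 2.3.2. The header of cytosolic replicate 1 carries the output name of nuclear replicate 1 but the input name of the cytosolic library, and it was kept as labelled.

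Shares used all counts of a table as denominator, with 95% Wilson intervals, and 3 counts as the floor. The 16504 genes that passed filterByExpr by group went into edgeR 4.0.16 (R 4.3.3; TMM, quasi-likelihood, 1 fit of 8 libraries, 6 contrasts, Benjamini-Hochberg, adjusted p under 0.05), after the script was tested on simulated data. DESeq2 1.42.0 was an alternative. The selected rows and all gene lists were chosen with earlier results of these data known. Named genes were the 3 rows, listed rRNA, microRNA and mitochondrial-copy rows with at least 50 counts in any library, the 3 closest profiles per row, up to 2 called genes per direction of each list and contrast, of which only some are printed, by no fixed rule, and LMNB1, MALAT1, NEAT1, GAPDH and ACTB as checks. Alternatives covered denominators, scalings, filters, a replicate block and leaving out each library. DNA samples of HCT116 and K562, the latter with conflicting labels, were not used here.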

Additional observations from a re-analysis of the deposited data

Results flagged for a closer look

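The MIR6087 share moved in opposite directions at the lamina preparations relative to the nuclear fraction. At the PFA lamina its mean share was 1.62 percentage points above that of the nuclear libraries, and both PFA libraries lay above both nuclear libraries. At the native lamina the difference was -3.18 percentage points, and both native libraries lay below both nuclear libraries. Both differences use the same nuclear libraries, and the difference between the preparations was not tested. With TMM-scaled levels in place of shares, the PFA and the nuclear libraries overlapped.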

How the results depend on the processing

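With another denominator, 40 mean shares moved by less than the spread between replicates and 20 by more. For RNR1 in the nuclear fraction the share was 13.3% over rows of at least 300 bases, 13.5% with TMM, 13.6% with DESeq2 and 14.8% with upper-quartile library sizes, and at the native lamina it was 5.47% without LMNB1, 4.56% with TMM, 4.549% with DESeq2 and 4.547% with upper-quartile sizes. For RNR2 in the nuclear fraction it was 19.8%, 20.05%, 20.3% and 22.1% in the first order. For MIR6087 it was 5.79% with upper-quartile sizes in the nuclear fraction. At the native lamina it was 1.76% without LMNB1, 1.465% with TMM, 1.46% with DESeq2 and 1.46% with upper-quartile sizes, and at the PFA lamina 7.11% without LMNB1, 6.15% with DESeq2 and 6.17% with upper-quartile sizes. The log2 ratio of native to nuclear was -1.27 (total counts) and -1.71 (upper quartile) for RNR1 and -1.55 (total counts) for MIR6087, and 51 other such ratios moved by less than the spread of pairings.

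Leaving out 1 library gave these ranges of log2 ratios. RNR1 had 0.67 to 1.87 (nuclear against cytosolic), -0.89 to 0.31 (native against cytosolic), -1.55 to 0.16 (PFA against nuclear), -0.40 to 1.41 (PFA against cytosolic) and 0.0081 to 1.72 (PFA against native). RNR2 had 1.02 to 2.35 (nuclear against cytosolic), -3.74 to -1.46 (PFA against nuclear), -2.20 to 0.17 (PFA against cytosolic, with 0.08 without PFA replicate 2) and -0.47 to 1.82 (PFA against native). It also had -3.92 to -2.83 (native against nuclear) and -2.38 to -0.92 (native against cytosolic). The sign changed in 6 such values.

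The number of genes called changed by over 1.5 times in 31 counts per list under another scaling, filter or test and by less in 185. The scalings after removal of the 3 rows were chosen after seeing the data and tested 16379 genes. Of the listed microRNA genes, PFA against cytosolic gave 4 with no filter, and 2 each with at least 10 counts in every library and with DESeq2. Of the polymerase genes, native against nuclear gave 4 with no filter and 1 with TMM after removal of the 3 rows, native against cytosolic gave 1 with total counts, and PFA against cytosolic gave 1 with no filter, with at least 10 counts and with DESeq2. Of the processing genes, native against nuclear gave 21 with total counts, 4 with upper-quartile factors, 17 with no filter, 4 with total counts after removal and 13 with DESeq2. Native against cytosolic gave 15 with no filter and 14 with DESeq2, and PFA against cytosolic gave 6 with no filter, 1 with at least 10 counts and 7 with DESeq2. Of the mitochondrial list, native against nuclear gave 0 with total counts and 2 with total counts after removal, native against cytosolic gave 3 with total counts, and PFA against cytosolic gave 2 with no filter, 1 with at least 10 counts and 2 with DESeq2. Over all genes, native against nuclear gave 1656 higher and 237 lower with total counts, 412 higher with upper-quartile factors, 1240 higher and 1469 lower with no filter, 345 higher with total counts after removal and 963 higher with DESeq2. The cause of these changes was not tested.

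The labels number the replicates 1 and 2 in each group. Deviations of same-numbered libraries correlated between -0.034 (cytosolic with PFA) and 0.352 (native with PFA), with 0.316 for nuclear with cytosolic. These values do not settle whether same-numbered libraries are pairs. The main fit did not take the numbers as pairs. With a replicate block, native against nuclear gave 961 genes higher and 885 lower, with 11 processing and 2 mitochondrial genes, and native against cytosolic gave 16 processing genes. PFA against cytosolic gave 2 listed microRNA genes, 1 polymerase gene and 1 mitochondrial gene with the block.

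Leaving out 1 library leaves a group with 1 library that is assumed to vary like the others. Calls then ranged, for the listed microRNA genes, over 0 to 6 (native against cytosolic), 0 to 4 (PFA against cytosolic) and 0 to 2 (PFA against native). For the polymerase list they ranged over 4 to 7 (nuclear against cytosolic), 0 to 4 (native against nuclear), 0 to 3 (native against cytosolic), 0 to 6 (PFA against nuclear), 0 to 2 (PFA against cytosolic) and 0 to 1 (PFA against native). For the processing list they were 15 to 56, 0 to 21, 0 to 22, 0 to 40, 0 to 20 and 0 to 4 in the same order, and for the mitochondrial list 5 to 17, 0 to 3, 0 to 7, 0 to 11, 0 to 3 and 0 to 4. Over all genes, native against nuclear ran from 1 to 1666 higher and from 9 to 2180 lower. With 2 libraries a group, and 2321291 counts in PFA replicate 2, small differences were not detectable.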
